A study of Mus musculus with 2 samples.

Results

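The Mir26 family in mouse consists of the genes Mir26b, Mir26a-1 and Mir26a-2, each of which lies inside a gene of the small C-terminal domain phosphatases. The 3 genes were selected by their symbols in GENCODE, a gene annotation, out of 1973 microRNA genes in the tables, and all 3 were found. They were picked with their levels already known, so the levels below are a description and carry no test. The series is small RNA sequencing (inserts under 30 nucleotides) of whole limbs, taken from mouse embryos (strain B6NCrl) at embryonic day 14.5. It has a single group of 2 libraries, named biological replicates 1 and 2. Each is labelled as 4 limbs and as pooled male and female, with 1 donor identifier on both. The labelled collection dates differ, and whether the libraries come from separate animals rests on these dates and the replicate numbers. The labels name no mutation and no treatment, so spreads are those between these 2 libraries and may be partly technical. Whole limb holds many cell types, and more cells of a type and more RNA per cell cannot be told apart.

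MicroRNAs are cut from a hairpin in a longer transcript, and either side of the hairpin can give a mature strand, called the 5p or the 3p arm. The arm is loaded into Argonaute and pairs with messenger RNAs mainly through its seed, bases 2 to 8. The miR-26 microRNAs are known for restraining growth and for roles in muscle and bone differentiation. Among their reported targets is Ezh2, the methyltransferase of the Polycomb repressive complex. The host phosphatases act on the C-terminal domain of RNA polymerase II and help to keep neuronal genes silent outside the nervous system.

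The mature sequences are shown first because they set which reads could be given to a gene. They come from RefSeq (build GRCm38.p6), are written 5′ to 3′, and have the seed in capitals.
Mir26b, 5p arm: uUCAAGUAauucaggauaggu
Mir26a-1 and Mir26a-2, 5p arm: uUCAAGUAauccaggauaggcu
Mir26b, 3p arm: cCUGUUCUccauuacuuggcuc
Mir26a-1, 3p arm: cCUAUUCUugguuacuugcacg
Mir26a-2, 3p arm: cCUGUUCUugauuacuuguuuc

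All 3 genes shared the 5p seed, and no other gene among the 1058 with a mature sequence in that table had it. Mir26a-1 and Mir26a-2 made the same 5p arm to the last base. Counted from 1 at the 5′ end, the 5p arm of Mir26b differed from it by C11U and C21U over the 21 bases compared, and it was shorter by 1 base. The 3p arms told all 3 genes apart. Those of Mir26a-1 and Mir26a-2 differed at 6 of 22 positions, and A4G lay in the seed. The 3p arms of Mir26a-2 and Mir26b differed at 4 positions and had the same 3p seed.

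The hairpins, with both mature arms in capitals, show where the copies part.
Mir26b: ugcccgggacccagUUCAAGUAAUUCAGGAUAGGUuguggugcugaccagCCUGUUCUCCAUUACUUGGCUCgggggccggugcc
Mir26a-1: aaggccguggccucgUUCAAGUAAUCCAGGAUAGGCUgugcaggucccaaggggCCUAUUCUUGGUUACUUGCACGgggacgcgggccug
Mir26a-2: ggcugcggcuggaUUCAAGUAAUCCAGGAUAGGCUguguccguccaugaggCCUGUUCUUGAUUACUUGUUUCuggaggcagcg

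The longest run common to the Mir26a hairpins was 25 bases. It began at the first base of the 5p arm and ended 3 bases past it, at bases 16 to 40 of Mir26a-1 and 14 to 38 of Mir26a-2. A read that lies within this run aligns to both genes. The deposited tables give reads with several alignments to no gene, so the counts of the Mir26a genes hold reads that reach outside the run, such as those of the 3p arms. The longest run of Mir26b in common with Mir26a-1 was 11 bases and with Mir26a-2 10 bases. None of its 64 stretches of 22 nucleotides occurred in any other of the 1005 hairpins of the RefSeq table, against 4 of 69 in Mir26a-1 and 4 of 63 in Mir26a-2. Its mature arms occurred in GENCODE transcripts of no other gene. Matches elsewhere in the genome were not searched.

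**Figure D1:**
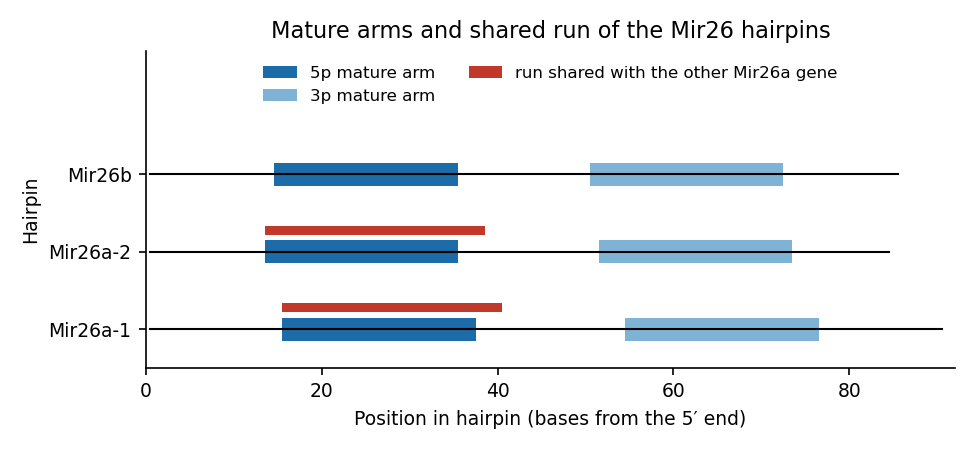
Each line is a hairpin drawn to scale in bases from its 5′ end, with the 5p arm in dark blue, the 3p arm in light blue and the run that the Mir26a genes share in red. The red run of 25 bases covers the whole 5p arm of Mir26a-1 and Mir26a-2, none of their 3p arms, and is missing from Mir26b.

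In GRCm38 coordinates (mm10) all 3 genes lie on the plus strand in introns of hosts on the same strand. Mir26b (ENSMUSG00000065468.1, chr1:74394310-74394394) lies in intron 4 of 6 of Ctdsp1 (transcript Ctdsp1-201 with 7 exons). Mir26a-1 (ENSMUSG00000065513.1, chr9:119031796-119031885) lies in intron 5 of Ctdspl-201, and Mir26a-2 (ENSMUSG00000065430.1, chr10:126995530-126995613) in intron 5 of Ctdsp2-202, each with 8 exons. The host introns measure 564, 3283 and 1946 bases. The remaining gene of the name group, Ctdspl2, held no microRNA gene of the tables. The nearest other microRNA gene of the tables was 188 kb from Mir26b, on the opposite strand, and 1032 kb from Mir26a-1. Mir26a-2 had Mir546 at 2826 bases on the same strand, over an exon of Ctdsp2, with 1 count in replicate 1 and 0 in replicate 2. Messenger RNA of the hosts was not measured.

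Mir26b was among the most abundant microRNAs of the limb by singly aligned reads, and the Mir26a genes were detected at low counts. Levels are given in CPM, counts scaled to a library total of 1000000 own-strand microRNA counts. Mir26b had 130478 counts in replicate 1 and 120263 in replicate 2. These are 28310 CPM (exact Poisson 95% interval 28157 to 28465) and 29018 CPM (28855 to 29183), with a mean of 28664 ± 500 CPM (SD, n = 2). The libraries lay close together, with an SD of 1.75% of the mean. Mir26b took 2.83% and 2.90% of the microRNA counts and held rank 11 of 1973 genes in each library.

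Mir26a-2 had 244 counts in replicate 1 and 271 in replicate 2. Its levels were 52.9 CPM (46.5 to 60.0) and 65.4 CPM (57.8 to 73.7), with a mean of 59.2 ± 8.80 CPM (SD, n = 2), rank 218. The library intervals of Mir26a-2 overlap, with replicate 2 the higher. Mir26a-1 had 80 counts in replicate 1 and 69 in replicate 2. Its levels were 17.4 CPM (13.8 to 21.6) and 16.6 CPM (13.0 to 21.1), with a mean of 17.0 ± 0.501 CPM (SD, n = 2), rank 258. These intervals cover counting error only, and reads amplified by PCR are not independent molecules. Both genes lay above the level of 3 counts, which is 0.651 CPM in replicate 1 and 0.724 CPM in replicate 2. None of the 3 genes had an opposite-strand count in either library, which allows up to the same level of 3 counts.

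**Figure D2:**
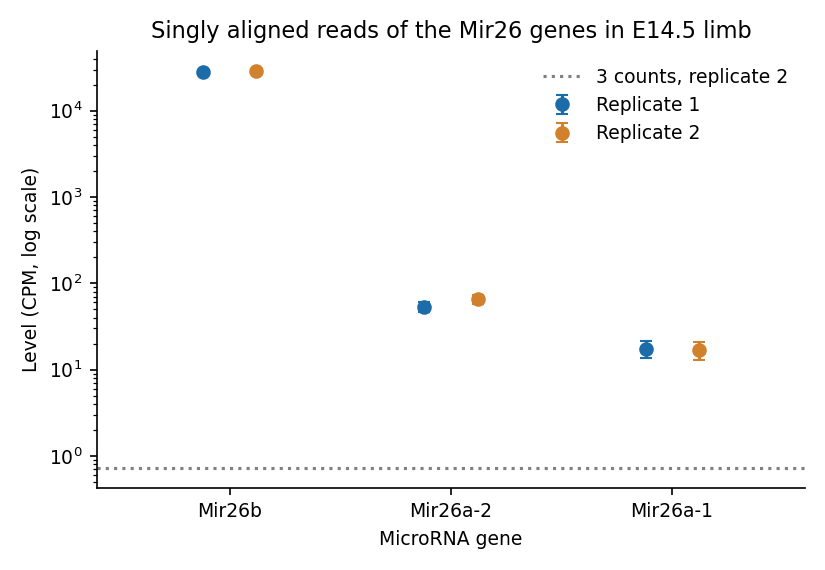
Points are the levels of each Mir26 gene in CPM (log axis) in replicate 1 (blue) and replicate 2 (orange), bars are exact Poisson 95% intervals for counting error, and the dotted line is the level of 3 counts in replicate 2. Mir26b sits near 28664 CPM in both libraries, and the intervals of Mir26a-2 and Mir26a-1 lie far below it without overlapping each other.

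The order Mir26b, Mir26a-2, Mir26a-1 was the same in both libraries, and no ranges overlapped between the 3 genes. Within the family Mir26b held 99.8% of the counts in replicate 1 (exact Clopper-Pearson 95% interval 99.72 to 99.78) and 99.7% in replicate 2 (99.69 to 99.75). The ratio of Mir26b to the Mir26a genes together was 403 in replicate 1 and 354 in replicate 2. It compares singly aligned reads and leaves out the 5p arm of Mir26a, so it is no ratio of amounts of RNA. For scale, the Mir26b counts equal 4.55% and 4.40% of the 2865223 and 2735942 reads with several alignments in replicates 1 and 2. The tables do not say how many of those reads came from Mir26a.

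Between the copies, Mir26a-2 exceeded Mir26a-1. It held 75.3% of the Mir26a counts in replicate 1 (exact Clopper-Pearson 95% interval 70.2 to 79.9) and 79.7% in replicate 2 (75.0 to 83.9). The count of Mir26a-2 was 3.05 times that of Mir26a-1 in replicate 1 and 3.93 times in replicate 2, a mean ratio of 3.49 ± 0.621 (SD, n = 2). Per base of hairpin (84 for Mir26a-2, 90 for Mir26a-1) the ratios were 3.27 and 4.21. The same order thus held in both libraries, for the reads outside the shared run. The shorter hairpin of Mir26a-2 can only raise these ratios, so the scale per base is no separate support. How evenly the 3p arms yield reads was not measured.

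The Mir26a pair was set beside other microRNAs with numbered copies, such as Mir16-1 and Mir16-2, which make 1 mature microRNA from several loci. Of 52 listed copies, 43 formed 21 groups with at least 2 copies in the tables, and 32 of the 43 reached 10 counts in each library. By summed level the Mir26a pair, at 76.2 CPM, was below 12 listed groups and above 8, and the median over groups was 101 CPM. The list left out some numbered copies, among them Mir450-1 and Mir450-2 (51.7 and 31.3 CPM) and Mir135a-1 and Mir135a-2 (4.00 and 5.92 CPM). Each of these had at least 10 counts in each library, so the places given hold among the listed groups only. The highest groups were Mir16 (3306 CPM), Mir181b (2530 CPM) and Mir125b (1924 CPM). The lowest were Mir133a, with 1 or 2 counts per gene in each library, Mir9, with 2 counts in all, and Mir124a, with no count.

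In 15 listed groups every copy reached 10 counts in each library. There the leading copy took between 50.3% of the group (Mirlet7a) and 98.0% (Mir196a), with a median of 76.8%. Mir26a-2 took 77.7% of its pair by mean level, which gave Mir26a rank 7 of the 15, close to that median. Mir30c was the nearest listed pair in level, with 53.6 CPM for Mir30c-1 and 16.2 CPM for Mir30c-2. Over all 858 genes of the tables that had RefSeq sequences, 52 shared 1 mature arm with another gene. Of these 52 genes 37 (71.2%) had 10 counts in each library, with a median of 66.9 CPM, and Mir26a-2 and Mir26a-1 held ranks 20 and 28 among them. Of 775 genes with no shared arm 245 (31.6%) were detected, with a median of 231 CPM, and Mir26b held rank 11 among them. Of 31 genes with every arm shared 5 (16.1%) were detected, with a median of 105.8 CPM. The table of sequences is not complete, so a shared arm may be missed.

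**Figure D3:**
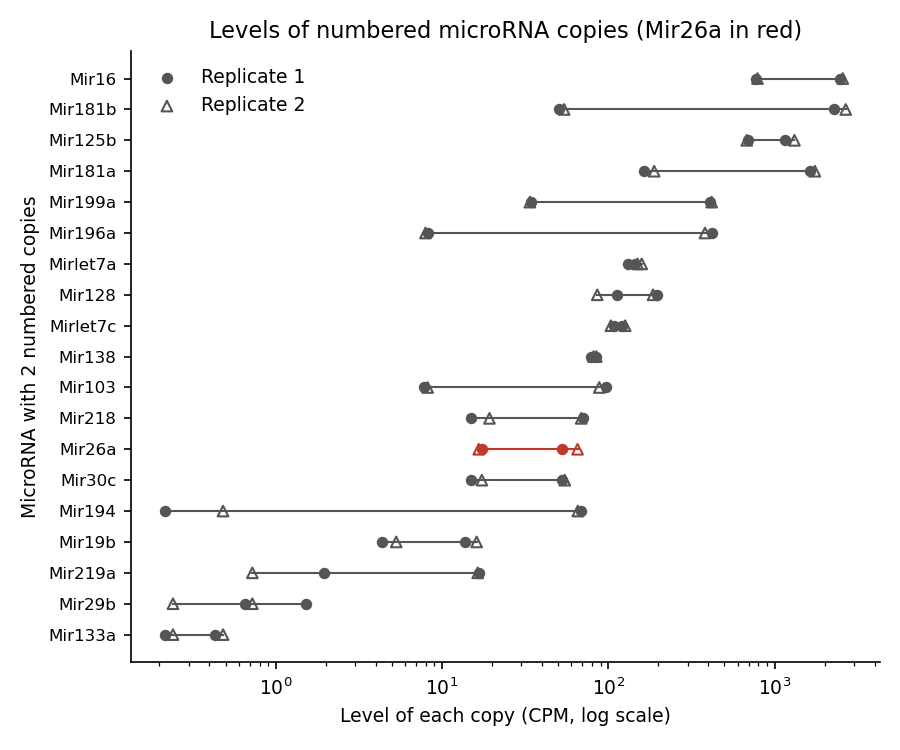
Each row is a listed microRNA with 2 numbered copies that all had counts in both libraries, ordered by summed level. Points are the CPM (log axis) of each copy in replicate 1 (circles) and replicate 2 (triangles). A line runs from the lowest to the highest. The Mir26a copies (red), near 59.2 and 17.0 CPM, lie beside those of Mir30c and Mir218.

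Among 26 listed microRNA families with a shared seed, the miR-26 family held rank 9 in each library. The list is not complete, so this rank holds among the listed families only. Mir335 (76729 CPM) and Mir140 (57289 CPM), which are in none of them, each lay above the miR-26 sum. Its members summed to 28381 CPM in replicate 1 and 29100 CPM in replicate 2 (mean 28741 ± 509 CPM, SD, n = 2). The miR-30 family, next above it, summed to 29630 and 30561 CPM, above miR-26 in both libraries and with ranges that did not overlap. The miR-181 family, next below, summed to 15763 and 17464 CPM, apart from miR-26 in both libraries. Ranked by its highest single gene the miR-26 family stood at 6. The leading gene took a median of 70.7% of its family over the 26 families, and 99.7% in miR-26. These sums count singly aligned reads, so any reads of the mature arm that the Mir26a pair shares are left out. Other families with shared arms can lose reads in the same way. The ranks and shares thus hold for singly aligned reads and are no measure of amounts of RNA. The families with shares above 99% were miR-26, miR-196 and miR-24, of which miR-24 had a single gene in the tables. Of 111 listed genes 99 were found by symbol. Mir92a-1 and Mir92a-2 were missed because the annotation calls them Mir92-1 (1803 CPM) and Mir92-2 (49.0 CPM). With them in their family, which then summed to 3172 CPM, miR-26 stayed at rank 9 and the median share of the leading gene was 69.2%. With them as a further group of copies the Mir26a pair was below 13 groups and above 8. The share of its leading copy then ranked 8 of 16, with a median of 77.3%.

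**Figure D4:**
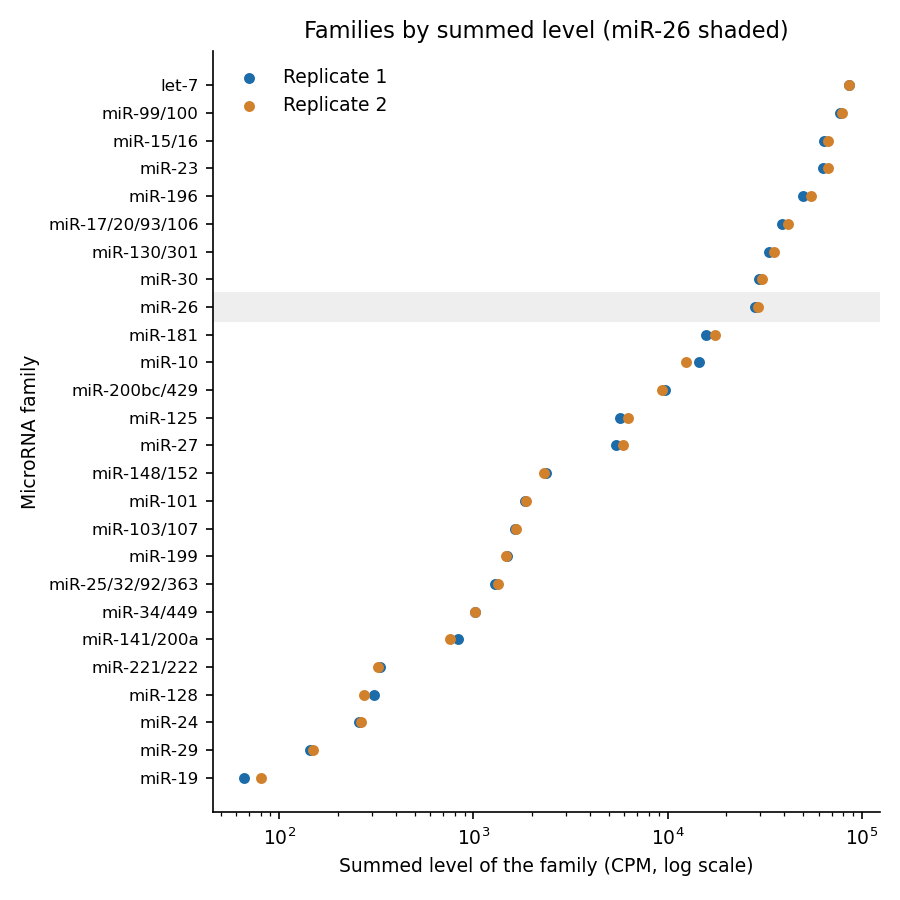
Each row is a listed microRNA family, ordered by mean summed level, with its summed CPM (log axis) in replicate 1 (blue) and replicate 2 (orange). The miR-26 row (shaded), at 28381 and 29100 CPM, lies just below miR-30 and well above miR-181, and the row of the family that holds Mir92b is drawn without Mir92-1 and Mir92-2.

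The genes nearest to Mir26b in level were compared by the log2 difference of mean CPM over the 2 libraries. Mir130a, a microRNA known from blood vessel growth, lay 0.04 below it at 27796 ± 1066 CPM (SD, n = 2), and its library range overlapped that of Mir26b. Mirlet7i was 0.11 above at 31038 ± 1291 CPM, with a range that did not overlap. Mir214, a mesenchymal microRNA from the Dnm3os transcript, was 0.12 above at 31163 ± 3130 CPM and overlapped. Mir203 of the epidermis lay further above, and Mir30e and Mir23a further below, all with ranges apart from Mir26b. The neighbours of Mir26a-2 were Mir20b, Mir1981 and Mir666 above and Mir449a, Mir452 and Mir29c below, from 53.9 to 63.8 CPM. Those of Mir26a-1 were Mir1298, Mir1249 and Mir218-1 above and Mir8112, Mir219a-1 and Mir30c-2 below, from 16.2 to 18.8 CPM. All 12 of these ranges overlapped that of their Mir26a gene, so the order among them was not resolved.

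Other microRNAs reported to repress Ezh2 ranged from no count to levels above Mir26b. Of 21 listed, 18 were in the tables and 15 reached 10 counts in each library, together 119335 ± 2517 CPM (SD, n = 2). The median was 146 CPM over the 18 genes and 1288 CPM over the 15 detected, against 177 CPM over all 333 genes detected in the same way, and 7 of the 15 lay below 177 CPM. The 3 highest took 85.0% of the sum: the let-7 gene Mirlet7g (39181 ± 376 CPM), Mir214 and Mirlet7i. Of the list, only these 3 lay above Mir26b. All 15 detected members lay above Mir26a-2 by singly aligned reads. The count of Mir26a-2 leaves out the mature arm that it shares with its copy. This order therefore does not show whether that arm was scarcer than the listed microRNAs. Mir101a and Mir101b, of the miR-101 family, reached 126 and 1728 CPM. The 3 Mir124a genes were at 0 counts, which allows up to 0.651 CPM in replicate 1 and 0.724 CPM in replicate 2. Messenger RNA of Ezh2 was not measured.

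The ratios between the libraries were small for Mir26b and Mir26a-1 and larger for Mir26a-2. The log2 ratio of replicate 2 over replicate 1 was 0.04 for Mir26b (95% counting interval 0.02 to 0.05), -0.06 for Mir26a-1 (-0.55 to 0.42) and 0.30 for Mir26a-2 (0.05 to 0.56). Over the 407 genes that summed to 10 counts or more the median ratio was 0.04 and the median size of the ratio 0.16. None of the 3 genes was 1.5-fold apart, against 12.3% of these genes, or 1.09% of the 275 genes with 100 counts or more, to which all 3 belong. A count of 0 of 3 is near the latter share and sets the Mir26 genes apart in no way. Of the 407 genes 70.8% had a ratio no larger in size than that of Mir26a-2, which lay above the median size. The sign for Mir26b turned with the scaling, to -0.03 with TMM and -0.04 with DESeq2 size factors. The intervals of Mir26a-1 and Mir26a-2 overlap, which does not decide whether the ratio of the copies differed between the 2 libraries, and this was not tested. With 1 library on each side no test across samples could be made.

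**Figure D5:**
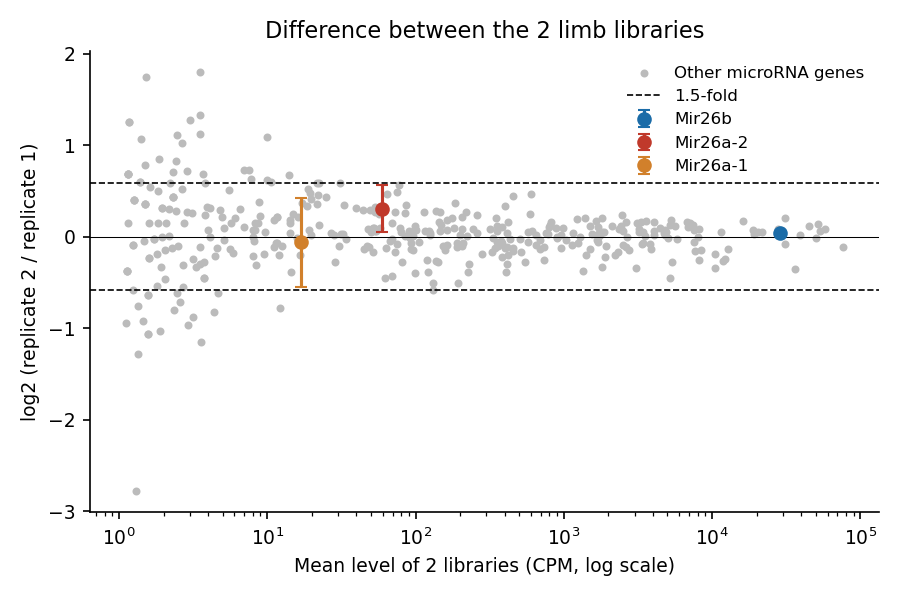
Points are the 407 genes that summed to 10 counts or more, placed by mean CPM (log axis) and by the log2 ratio of replicate 2 over replicate 1, and dashed lines mark 1.5-fold. The Mir26 genes are coloured, with 95% counting intervals, and all 3 lie between the dashed lines.

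The libraries held 4608816 and 4144385 own-strand microRNA counts, of 9001596 and 8387546 reads. All 9 limb markers examined were detected, between 109 and 58999 CPM. They were Mir140 and Mir455 of cartilage, Mir196b, Mir10b and Mir214 of limb mesenchyme, Mir206 and Mir133b of muscle, and Mir203 and Mir205 of skin. Of other muscle microRNAs, Mir499 (195 CPM) and Mir208b (121 CPM) were detected. Mir1a-1, Mir133a-1 and Mir133a-2 had 1 or 2 counts in each library, and numbered copies can lose reads with several alignments. Mir126a of vessels reached 18963 CPM in replicate 1 and 19268 CPM in replicate 2. Mir451a, Mir144, Mir223 and Mir155 of blood lay between 59.4 and 459 CPM. The liver microRNA Mir122 had 29 counts in replicate 1 and 56 in replicate 2 (6.29 and 13.5 CPM). In replicate 2 this was not far below Mir26a-1, at 16.6 CPM. Of the brain microRNAs, Mir124a had no count and Mir9-3 had 2 counts, but both have several copies.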

How the data were processed

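Small RNA of embryonic limb was measured in 2 libraries of 1 group. The authors deposited a table of raw read counts for each library, as whole numbers per microRNA gene with no scaling, in 3 columns that have no names. Per the submitters' read-me texts, the authors aligned reads to mm10 and counted them on GENCODE M4. Which aligner and counter were run is not given in the sources used here. The columns were read as counts on either strand, the own strand and the opposite strand, judged from the values. Tally rows, among them reads with several alignments (31.8% and 32.6% of all reads), stayed out of the totals.

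Own-strand counts were scaled to CPM. Symbols, positions and introns came from GENCODE M21 by gene identifier (1894 of 1973 matched) and sequences from RefSeq GRCm38.p6 (858 genes). Log2 ratios carried a prior count of 0.5. Intervals are exact at 95%, for Poisson counts, binomial shares and conditional binomial ratios. The Poisson and ratio intervals were tested on simulated Poisson counts. That checks the calculation and does not show whether the real counts vary in that way. Named genes were the 3 Mir26 genes, the 3 next above and below each by mean CPM, the 3 highest Ezh2 repressors, the 3 highest and lowest groups of copies and the families next to miR-26. Any further gene named was picked with its values in view. The genes and lists were chosen with earlier results of these data known. Alternatives were the count column, the total, edgeR 4.0.16 TMM and DESeq2 1.42.0 scaling in R 4.3.3, the prior count, the filter, the fold, the stretch length and leaving out a replicate. The scripts ran in Python 3.11.15 with scipy 1.17.1, pandas 2.3.3, numpy 2.4.6 and matplotlib 3.10.9.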

Additional observations from a re-analysis of the deposited data

How the results depend on the processing

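Of 67 alternatives, 1 (the Mir92 symbols) was added after the data were seen. In 46 a value moved by less than the spread between the libraries, its counting interval or 1.5 times a count. In the other 21 it moved further. The 46 include alternatives that could not move further. Leaving out a replicate always moves a mean level or share by less than the SD of both libraries. The share of Mir26b could not change with the strand, because the Mir26 genes had no opposite-strand count. With reads of several alignments in the total, Mir26b was at 17468 CPM, Mir26a-1 at 10.4, Mir26a-2 at 36.0 and the family at 17515 CPM. With all reads in the total they were at 14417, 8.56, 29.7 and 14455 CPM. With counts on either strand, Mir26b was at 27764, Mir26a-1 at 16.5 and the family at 27838 CPM, while Mir26a-1 ranked 269 and Mir26a-2 ranked 229. Without either replicate in turn, Mir26a-1 ranked 253 to 260. By its highest gene the miR-26 family ranked 6. The ratio for Mir26b was -0.026 with TMM and -0.036 with DESeq2 size factors, which shift all ratios by -0.06 and -0.07. Genes at least 1.5-fold apart numbered 50, against 3 with at least 100 counts in total and 17 at 2-fold. With stretches of 18 nucleotides, 8 were shared by each Mir26a gene. The rank of 9 by summed level among the listed families was the same under the strand and replicate alternatives. The order of the 3 genes held in each library. Counts on either strand could not change that order, since the 3 genes had no opposite-strand count. Depth limits the Mir26a genes, which rest on 149 and 515 counts over both libraries. No paired analysis was possible because the design has a single group.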

Other observations

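The 3p seed that Mir26a-2 and Mir26b share was found in 2 further genes of the RefSeq table, Mir6932 and Mir7039. Mir6932 had 0 counts in replicate 1 and 2 in replicate 2, and Mir7039 had 1 and 2, so both were at or under the level of 3 counts. The 3p seed of Mir26a-1 was found in no other gene of that table.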
